A study of Sus scrofa with 15 samples.

Results

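Prostaglandins and leukotrienes are made on demand from arachidonic acid, and the genes described here make, sense or remove them in backfat of Iberian pigs. The set holds 10 genes, chosen by name as genes of these lipid mediators with earlier results of these data known. They were matched to Ensembl identifiers by symbol, out of 30477 genes in each deposited file of read counts. All 10 had enough counts to be tested.

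Backfat of 15 pigs aged 12 months, 5 per diet, was biopsied and read as 1 RNA-seq library per pig, all of the Iberian breed, to ask what feed with olive by-products changes in this tissue. The control (C) group ate a compound feed set to 70% of what the pigs would take freely as energy. The dry olive pulp (DOP) group received a compound feed with 45% olive pulp, and the wet crude olive cake (WCOC) group a compound feed without by-product beside a silage with 75% olive cake offered without limit, both compound feeds being set to 60%. Each diet was 1 pen, so diet and pen cannot be told apart, and the pigs read were picked from each pen mainly by how much RNA of what quality they gave. Read pairs counted on genes ran from 22373715 to 34745218 per library. All DOP libraries and C pig 5 were on 1 flow cell and the 9 others on a second. Levels are given as CPM, the counts of a gene scaled to a library of 1e+06 counts after TMM normalisation. Adipocyte markers were at high levels in every library (PLIN1, the coat protein of fat droplets, from 2115 to 4252 CPM). RNA of skeletal muscle was unevenly present: 5 muscle markers summed to 42284 CPM in DOP pig 5, 9462 in DOP pig 2 and 5581 in DOP pig 4, against 192 to 3430 in the other 12 pigs. In bulk tissue, fewer cells of a type and less RNA per cell cannot be told apart.

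In this pathway, phospholipases free arachidonic acid from membranes and the cyclooxygenases PTGS1 and PTGS2 turn it into the prostaglandin precursor. Terminal synthases such as PTGES and PTGIS then make prostaglandin E2 and prostacyclin. Prostaglandin E2 acts through receptors that include the products of PTGER3, which restrains lipolysis in fat cells, and of PTGER4, which raises cyclic AMP. HPGD and PTGR2 belong to the steps that inactivate prostaglandins. In a separate branch ALOX5, handed its substrate by ALOX5AP, makes leukotrienes, chiefly in myeloid cells.

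Promoter sequence is shown for the genes whose levels the results turn on. Each window runs from 250 bases before to 50 after the gene start of the RefSeq annotation on Sscrofa11.1, 5′ to 3′ on the strand of the gene, with capitals marking the motifs searched on both strands. PTGER4 (chr16:25670582-25670881, plus strand) rose on WCOC, PTGR2 (chr7:97173893-97174192, plus strand) rose on DOP, PTGS2 (chr9:127858817-127859116, minus strand) was high in 1 pig, and PTGS1 (chr1:262455856-262456155, plus strand) and ALOX5 (chr14:90907035-90907334, minus strand) varied together from pig to pig.
PTGER4: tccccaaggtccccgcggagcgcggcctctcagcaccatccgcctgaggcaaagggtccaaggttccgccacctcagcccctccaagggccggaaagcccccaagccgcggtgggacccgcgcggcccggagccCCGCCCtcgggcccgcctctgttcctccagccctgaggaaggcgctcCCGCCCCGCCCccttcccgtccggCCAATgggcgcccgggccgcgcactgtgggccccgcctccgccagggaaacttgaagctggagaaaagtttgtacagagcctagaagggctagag
PTGR2: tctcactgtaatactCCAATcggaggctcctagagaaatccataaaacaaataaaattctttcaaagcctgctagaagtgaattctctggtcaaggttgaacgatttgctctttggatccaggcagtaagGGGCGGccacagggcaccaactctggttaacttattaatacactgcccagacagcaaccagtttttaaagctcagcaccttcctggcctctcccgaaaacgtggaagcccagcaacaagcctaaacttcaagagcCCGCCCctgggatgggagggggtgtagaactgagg
PTGS2: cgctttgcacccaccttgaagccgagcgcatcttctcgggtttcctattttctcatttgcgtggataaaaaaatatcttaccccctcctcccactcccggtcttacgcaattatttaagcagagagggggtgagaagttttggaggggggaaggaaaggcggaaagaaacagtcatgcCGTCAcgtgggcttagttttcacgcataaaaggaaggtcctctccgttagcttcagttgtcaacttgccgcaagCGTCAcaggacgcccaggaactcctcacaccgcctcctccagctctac
PTGS1: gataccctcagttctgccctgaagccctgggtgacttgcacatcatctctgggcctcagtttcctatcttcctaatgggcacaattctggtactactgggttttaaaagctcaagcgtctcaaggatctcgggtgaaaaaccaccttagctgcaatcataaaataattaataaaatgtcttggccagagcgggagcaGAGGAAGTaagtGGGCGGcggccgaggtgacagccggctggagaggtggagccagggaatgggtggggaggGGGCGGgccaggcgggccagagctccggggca
ALOX5: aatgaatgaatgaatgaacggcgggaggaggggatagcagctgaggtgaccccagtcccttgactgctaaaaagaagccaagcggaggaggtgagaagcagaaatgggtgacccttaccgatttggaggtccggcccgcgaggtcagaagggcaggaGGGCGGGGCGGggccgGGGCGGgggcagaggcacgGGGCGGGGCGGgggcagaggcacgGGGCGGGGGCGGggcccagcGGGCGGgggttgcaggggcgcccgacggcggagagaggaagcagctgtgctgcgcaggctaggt

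The GC box GGGCGG, held by 50.6% of the 19534 promoters read the same way, occurred 8 times in the ALOX5 window, 3 times in that of PTGER4 and 2 times each in those of PTGR2 and PTGS1. The CCAAT box (35.4% of promoters) began 45 bases before the PTGER4 start and 235 bases before the PTGR2 start. PTGS1 carried GAGGAAGT, the form of ETS site that the myeloid factor PU.1 binds, which 2.17% of promoters hold. None of the 5 windows held TATAAA (10.9% of promoters), TGACGTCA (2.26%), TTGCGCAA (0.205%) or GGACTTTCC (0.282%). The PTGS2 window held none of these 7 motifs. It held the cyclic AMP half-site CGTCA, a stretch of TGACGTCA searched for after that window had been read, 72 bases before the start and again 2 bases after it, as 24.3% of promoters do. These are matches of letters, not mapped binding sites.

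Levels between genes are compared per kilobase of exon, as the mean over all 15 libraries. The length used joins all RefSeq exons of a gene, while the counts were assigned to Ensembl genes. It can exceed the length of the transcripts present, so the order of genes on this scale is approximate. PTGIS, the prostacyclin synthase of vessel walls and stroma, stood highest at 29.1 ± 7.20 CPM per kb (SD, n = 15). PTGER3 followed at 8.67 ± 2.15 and PTGES, the inducible prostaglandin E2 synthase, at 6.20 ± 2.19. PTGR2 (4.18 ± 1.29), PTGER4 (3.83 ± 0.987) and PTGS1 (3.70 ± 1.22) were within 1 SD of each other, as were ALOX5 (2.27 ± 0.884) and ALOX5AP (2.23 ± 0.523). HPGD was at 1.27 ± 0.424 and PTGS2 lowest at 0.487 ± 0.942 CPM per kb. Other genes of the pathway could be placed on this scale only where the annotation gave an exon length. Listed genes that matched no identifier are left out here. All matched genes of 3 roles had a length. The highest were EPHX2 (73.8 ± 19.2 CPM per kb) of 2 epoxide branch genes and CYSLTR2 (16 ± 3.15) of 4 leukotriene and lipid mediator receptors. TBXA2R (7.51 ± 3.22) was highest of 6 prostanoid receptors. PTGR1 (126 ± 34.1 CPM per kb) was highest of the 4 with a length among 5 uptake, export and breakdown genes. LTA4H (23.3 ± 2.44) was highest of 8 among 10 genes of lipoxygenases and leukotriene synthesis. PTGES3 (22.2 ± 2.27) was highest of 6 among 7 prostanoid synthases. PLA2G6 (9.28 ± 1.37) was highest of the 10 with a length among 12 phospholipases, and PLAAT3, one of those without, was at 129 to 285 CPM against 24.4 to 38.9 CPM for PLA2G6. Of the 10 genes, PTGIS thus stood highest on this scale, and PTGR1, which like PTGR2 reduces a prostaglandin metabolite, exceeded PTGR2 on it.

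**Figure D1:**
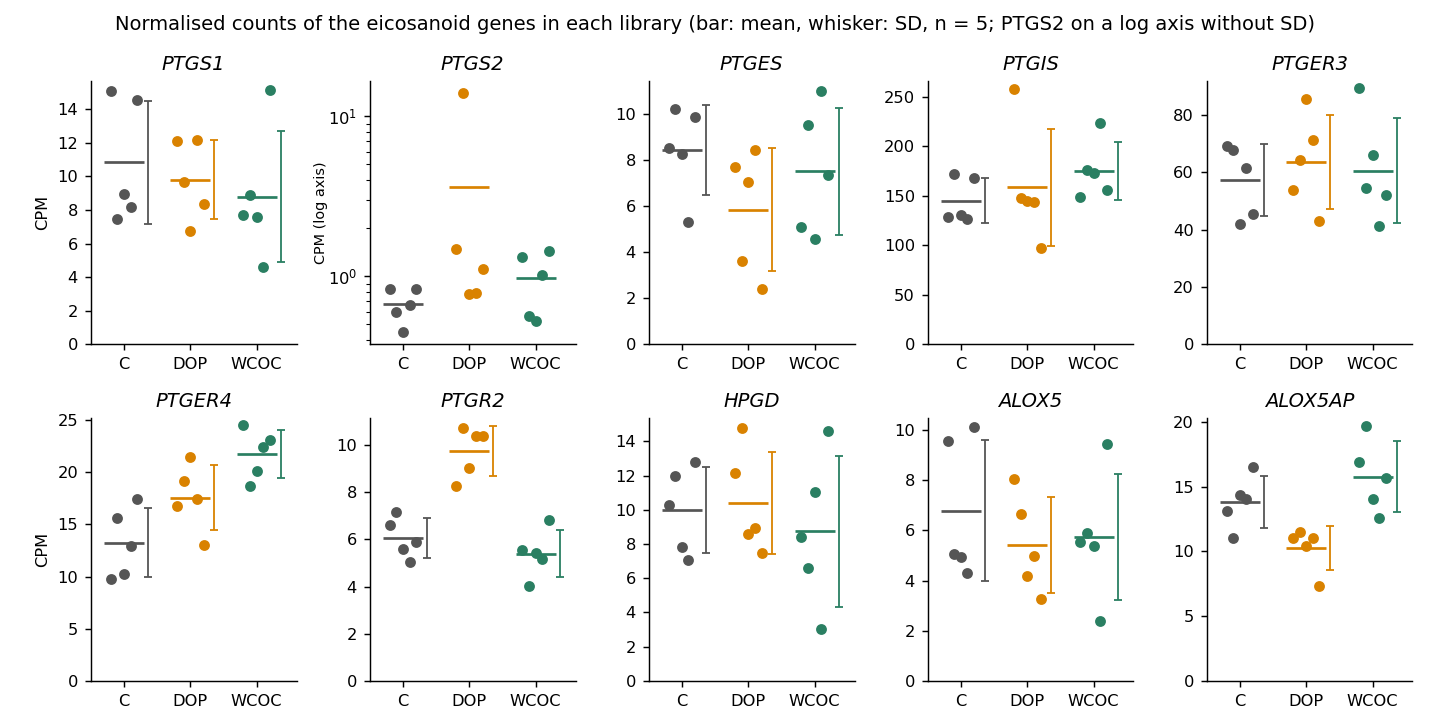
CPM of each of the 10 genes in each library (points, vertical axis) for the C, DOP and WCOC groups (horizontal axis), with the mean as a bar and the SD as a whisker, n = 5 per diet. PTGS2 is on a log axis without its SD. PTGR2 in DOP lies wholly above both other diets, PTGER4 in WCOC wholly above C, and PTGS2 reaches 14 CPM in 1 DOP pig only.

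Of the cyclooxygenases, PTGS1 (ENSSSCG00000005533, chr1:262456106-262482159) is the constitutive form. Its levels were 15.1, 7.48, 8.98, 8.18 and 14.5 CPM in the 5 C pigs, 12.1, 9.66, 6.76, 12.2 and 8.33 CPM in the DOP pigs, and 7.72, 8.91, 7.61, 4.61 and 15.2 CPM in the WCOC pigs. The diets overlapped widely, and the log2 fold change (log2FC) was -0.15 ± 0.29 (SE) in DOP vs. C and -0.30 ± 0.29 in WCOC vs. C (adjusted p = 0.84 and 0.537, edgeR quasi-likelihood test).

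PTGS2 (ENSSSCG00000015579, chr9:127850164-127858866) is the inducible form that acute stress and inflammation switch on. It was at 0.834, 0.598, 0.446, 0.662 and 0.828 CPM in C, at 1.49, 14, 0.772, 0.789 and 1.12 CPM in DOP, and at 1.31, 0.562, 0.522, 1.02 and 1.45 CPM in WCOC. DOP pig 2 alone carried the high value, 371 counts, while the lowest library had 14. The log2FC of 2.43 ± 0.76 in DOP vs. C was not called, a call needing a log2FC of 0.58 or more in size and an adjusted p under 0.05 (adjusted p = 0.136), and without DOP pig 2 it came to 0.62 ± 0.34 (adjusted p = 0.418, edgeR). DESeq2 gave no p-value for this gene. WCOC vs. C gave 0.54 ± 0.76 (adjusted p = 0.692), and WCOC vs. DOP -1.89 ± 0.73 (adjusted p = 0.105), which came to -0.093 ± 0.33 without DOP pig 2 (adjusted p = 0.897, edgeR). The genes that followed PTGS2 most closely, centred within diets over 15 libraries, were TRMO (Pearson r = 0.97, Spearman rho = 0.91), CSRNP1 (0.94 and 0.88) and ZFP36 (0.93 and 0.80). ZFP36, an immediate early gene that speeds the decay of inflammatory messengers, was at 246 CPM in DOP pig 2 and at most 57.0 CPM elsewhere, and without that pig its r was 0.78. The same library had the highest sums of the T cell list (25.3 CPM) and of the B cell list (14.5 CPM) and the second highest muscle sum. Their part in the PTGS2 level was not tested. PTGS2 overlaps PLA2G4A, which runs on the other strand, and the strand option of the counting is not given, so reads could be shared between them. PTGIS, PTGER3 and HPGD likewise overlap annotated pseudogenes or noncoding genes.

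Of the terminal synthases, PTGES (ENSSSCG00000005688, chr1:269911785-269924481) was at 8.45 ± 1.96 CPM in C, 5.85 ± 2.67 in DOP and 7.52 ± 2.78 in WCOC (SD, n = 5). PTGIS (ENSSSCG00000007463, chr17:51153151-51200515) was at 145 ± 22.6, 159 ± 59.5 and 175 ± 29.1 CPM. No difference between diets passed the test for either: the log2FC was -0.53 ± 0.33 for PTGES in DOP vs. C (adjusted p = 0.438) and 0.27 ± 0.20 for PTGIS in WCOC vs. C (adjusted p = 0.415, edgeR). In WCOC vs. DOP it was 0.36 ± 0.33 for PTGES (adjusted p = 0.523) and 0.15 ± 0.20 for PTGIS (adjusted p = 0.694). The highest PTGIS level, 258 CPM, was in DOP pig 1, and the lowest levels of PTGIS (97.5 CPM) and PTGES (2.41 CPM) were both in DOP pig 5, the library with the most muscle RNA.

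PTGER4 (ENSSSCG00000024439, chr16:25670832-25686556) was the member that rose on WCOC (1 of 10 members called, against 6.25% of all genes tested). Its levels were 9.81, 15.6, 10.3, 13 and 17.5 CPM in C, 16.8, 19.1, 21.4, 17.4 and 13 CPM in DOP and 24.5, 18.7, 20.1, 22.4 and 23.1 CPM in WCOC. Every WCOC pig lay above every C pig, and the DOP pigs lay between, overlapping both. The log2FC in WCOC vs. C was 0.72 ± 0.16, a 1.64-fold rise (adjusted p = 0.0159, edgeR). It was 0.41 ± 0.16 in DOP vs. C (adjusted p = 0.22) and 0.31 ± 0.16 in WCOC vs. DOP (adjusted p = 0.234), neither of them called. On the flow cell that held 4 C and all WCOC pigs, WCOC vs. C gave 0.83 ± 0.15 (adjusted p = 0.0195), and the call held without each pig in turn (adjusted p from 0.0101 to 0.0479). The adipocyte list summed to 12449 to 16333 CPM in C and 15381 to 21841 CPM in WCOC, and the macrophage list to 338 to 1015 and 173 to 429 CPM. Their part in the PTGER4 difference was not tested. Without the C pigs with the most macrophage RNA (C pigs 3 and 5, an alternative chosen after seeing the data) the log2FC was 0.76 ± 0.17 (adjusted p = 0.0402). The genes most like PTGER4 over the 15 libraries were TBC1D8B (r = 0.92, rho = 0.92), PPFIA1 (0.90 and 0.93) and GNA13 (0.90 and 0.85).

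PTGER3 (ENSSSCG00000003788, chr6:141958955-142160437), the receptor through which prostaglandin E2 lowers cyclic AMP, was at 57.2 ± 12.6 CPM in C, 63.5 ± 16.4 in DOP and 60.6 ± 18.4 in WCOC. Its log2FC of 0.15 ± 0.22 in DOP vs. C and 0.08 ± 0.22 in WCOC vs. C did not pass the test (adjusted p = 0.771 and 0.844, edgeR). Of the 2 receptors, PTGER3 was thus the more abundant per kilobase in each diet and PTGER4 the one called in WCOC vs. C. Whether their changes differed was not tested.

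PTGR2 (ENSSSCG00000002351, chr7:97174143-97195601), which reduces 15-keto-prostaglandin E2, was the member that rose on DOP (1 of 10 called, against 0.764% of all genes). It was at 6.62, 7.18, 5.61, 5.02 and 5.90 CPM in C, 8.27, 10.7, 9.01, 10.4 and 10.4 CPM in DOP and 5.56, 4.01, 5.42, 5.18 and 6.82 CPM in WCOC. The DOP pigs overlapped neither of the other groups, which overlapped each other. The log2FC was 0.69 ± 0.14 in DOP vs. C, 1.61-fold (adjusted p = 0.0434), and -0.85 ± 0.14 in WCOC vs. DOP (adjusted p = 0.00356), while WCOC vs. C gave -0.17 ± 0.14 (adjusted p = 0.488, all edgeR). C pig 5, the control on the DOP flow cell, was at 5.90 CPM, below all DOP pigs. With flow cell as a covariate, a fit that rests on this pig, both calls were lost. In WCOC vs. DOP, diet and flow cell cannot be told apart. The DOP vs. C call stood close to its limit: it was lost without C pig 3, 4 or 5 or DOP pig 2, 3, 4 or 5, with log2FC from 0.62 to 0.75 and adjusted p up to 0.121 over the 10 fits. DESeq2 gave an adjusted p of 0.000479 for DOP vs. C. It was 1 of 2 alternatives that kept this call, of 8 other than leaving out 1 pig. The muscle-rich DOP pigs 2, 4 and 5 had the highest PTGR2 levels. DOP pigs 1 and 3, with muscle sums of 199 and 358 CPM, were at 8.27 and 9.01 CPM. C pigs 1 and 3, with muscle sums of 2101 and 3430 CPM, were at 6.62 and 5.61 CPM. Leaving out the 3 muscle-rich libraries, an alternative chosen after seeing the data, kept only DOP pigs 1 and 3. It gave 0.51 ± 0.20 (adjusted p = 0.66) in DOP vs. C and -0.69 ± 0.20 (adjusted p = 0.158) in WCOC vs. DOP (edgeR), and both calls were lost. That fit called no gene at all in DOP vs. C and far fewer than the main fit in WCOC vs. DOP. Losing a call there therefore cannot decide on muscle RNA. The part of muscle RNA in these differences was not tested beyond that. The genes most like PTGR2 were GHSR (r = 0.84, rho = 0.81), CYSLTR2 (0.84 and 0.74), a receptor of cysteinyl leukotrienes, and MARK2 (0.83 and 0.75).

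HPGD (ENSSSCG00000009699, chr14:15718261-15773534) oxidises prostaglandin E2 in the step before PTGR2. It was at 10.3, 12, 7.80, 7.09 and 12.8 CPM in C, 12.1, 14.8, 8.61, 8.94 and 7.50 CPM in DOP and 8.41, 6.59, 11, 3.02 and 14.6 CPM in WCOC. The groups overlapped, and the log2FC of 0.06 ± 0.33 in DOP vs. C and -0.19 ± 0.33 in WCOC vs. C did not pass the test (adjusted p = 0.955 and 0.749, edgeR). HPGD ranged 4.90-fold from its lowest to its highest pig. Its SE in DOP vs. C was wider than the 0.14 of PTGR2, and whether the changes of the 2 enzymes differed was not tested.

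Of the leukotriene branch, ALOX5AP (ENSSSCG00000009330, chr11:7371328-7438111) was at 13.1, 11.06, 14.3, 14.1 and 16.5 CPM in C, 11, 11.5, 10.4, 11 and 7.32 CPM in DOP and 16.9, 19.7, 14, 12.5 and 15.7 CPM in WCOC. WCOC lay wholly above DOP, and 4 of 5 DOP pigs lay below the lowest C pig. The log2FC was 0.62 ± 0.15 in WCOC vs. DOP, 1.54-fold (adjusted p = 0.0181), -0.43 ± 0.15 in DOP vs. C (adjusted p = 0.159) and 0.19 ± 0.15 in WCOC vs. C (adjusted p = 0.442, all edgeR). All DOP libraries were on 1 flow cell and all WCOC libraries on the other, so diet and flow cell cannot be told apart in WCOC vs. DOP. C pig 5, on the DOP flow cell, was at 16.5 CPM, the highest of the C pigs. With flow cell as a covariate, a fit that rests on this pig, the WCOC vs. DOP call was lost. In WCOC vs. DOP the log2FC stayed at 0.52 or more without each pig in turn, falling under the fold limit without DOP pig 5 or WCOC pig 2. Without the 3 muscle-rich DOP libraries, which kept only DOP pigs 1 and 3, it was 0.55 ± 0.19 (adjusted p = 0.235, edgeR). The macrophage list summed to 220 to 543 CPM in DOP and 173 to 429 CPM in WCOC. The part of muscle or macrophage RNA in the ALOX5AP difference was not tested beyond that. Most like ALOX5AP were SLC35F6 (r = 0.84, rho = 0.79), RHOA (0.84 and 0.82) and CD300C (0.84 and 0.82), a receptor of myeloid cells.

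ALOX5 (ENSSSCG00000010404, chr14:90859209-90907084) was at 9.56, 5.04, 4.94, 4.28 and 10.1 CPM in C, 8.03, 6.64, 4.20, 4.99 and 3.28 CPM in DOP and 5.53, 5.88, 5.39, 2.38 and 9.44 CPM in WCOC. Its log2FC of -0.32 ± 0.35 in DOP vs. C and -0.24 ± 0.35 in WCOC vs. C did not pass the test (adjusted p = 0.688 and 0.694, edgeR). In WCOC vs. DOP its log2FC was 0.08 ± 0.35 (adjusted p = 0.912), beside 0.62 ± 0.15 for its partner ALOX5AP, and the difference between the 2 genes was not tested. With each diet centred, ALOX5 and ALOX5AP gave r = 0.59 and rho = 0.56 over the 15 libraries (permutation p = 0.033 and 0.0428, 0.297 and 0.329 adjusted over the 45 pairs of members), which did not pass the adjustment.

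**Figure D2:**
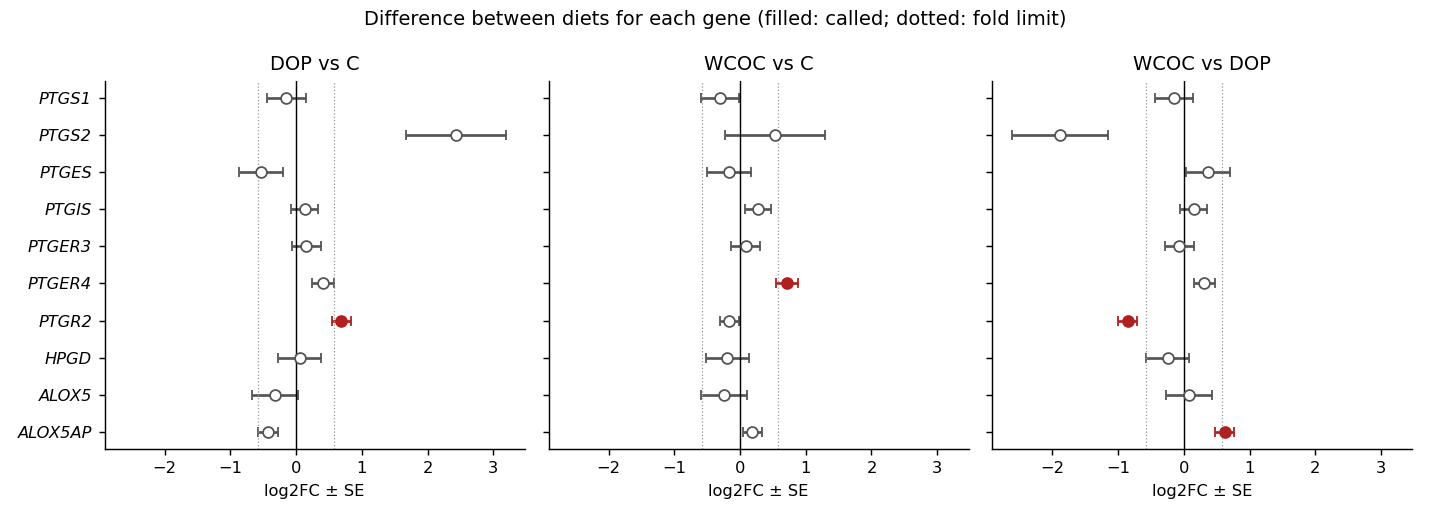
Log2FC (horizontal axis) with its SE for each of the 10 genes (vertical axis) for each pair of diets, filled where called. The calls are PTGR2 in DOP vs. C, PTGER4 in WCOC vs. C, and PTGR2 and ALOX5AP in WCOC vs. DOP.

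Counted over the 10 genes, 1 was called in DOP vs. C, against 0.764% of all 14918 genes tested, 1 in WCOC vs. C, against 6.25%, and 2 in WCOC vs. DOP, against 7.76%. By direction, PTGR2 was called higher in DOP vs. C (0.215% of all genes higher, 0.55% lower), PTGER4 higher in WCOC vs. C (2.33% and 3.93%), and ALOX5AP higher and PTGR2 lower in WCOC vs. DOP (2.65% and 5.11%). Non-overlapping values were found for 1, 1 and 2 members, against 3.47%, 7.62% and 8.9% of all genes. In WCOC vs. C the share of members called was near that of all genes. An unadjusted p under 0.05 was reached by 4 members (PTGS2, PTGER4, PTGR2 and ALOX5AP) in DOP vs. C (17.6% of all genes), by 1 in WCOC vs. C (26.4%) and by 3 in WCOC vs. DOP (28.1%). The median size of the log2FC was 0.36 over the members and 0.15 over all genes in DOP vs. C, 0.22 and 0.20 in WCOC vs. C, and 0.28 and 0.20 in WCOC vs. DOP. The comparisons with C share the same 5 control pigs. The members were chosen with earlier results of these data known, so these counts and medians describe the list and test nothing about it.

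Across pigs within a diet, ALOX5 varied with PTGS1 and with HPGD. PTGS1 and ALOX5 were highest in WCOC pig 5 and C pigs 1 and 5 and lowest in WCOC pig 4, which was also lowest for HPGD. Over 15 libraries with each diet centred, Pearson's r of PTGS1 and ALOX5 was 0.90 and Spearman's rho 0.86 (permutation p = 0.00058 and 0.00108; 0.0261 and 0.0486 adjusted over the 45 pairs of members). Without WCOC pigs 4 and 5, the farthest from the median, r was 0.83, and it was 0.96 on the flow cell with 9 libraries and 0.74 on that with 6. HPGD and ALOX5 gave r = 0.83 and rho = 0.79 (permutation p = 0.00116 and 0.00216; adjusted 0.0261 and 0.0486), with r = 0.67 without WCOC pigs 4 and 5 and 0.83 and 0.90 within the flow cells. For PTGS1 and HPGD r was 0.68 and rho 0.59 (permutation p = 0.0222 and 0.0346, adjusted p = 0.25 and 0.329) and r fell to 0.31 without WCOC pigs 4 and 5, so it rested on them. No other pair passed the adjustment. The T cell list summed to 19.1 CPM in WCOC pig 5, 17.5 CPM in C pig 5 and 11.5 CPM in C pig 1 and was lowest, at 4.03 CPM, in WCOC pig 4. Its highest sum, 25.3 CPM, was in DOP pig 2, which ranked 10 from the lowest of 15 for PTGS1 and 11 for ALOX5. The macrophage list summed to 316 CPM in WCOC pig 5, 1015 CPM in C pig 5, 455 CPM in C pig 1 and 177 CPM in WCOC pig 4. In DOP pigs 1 to 5 it summed to 543, 410, 292, 353 and 220 CPM, in the same order as ALOX5. C pig 3 and WCOC pig 2 had macrophage sums of 788 and 429 CPM with ALOX5 at 4.94 and 5.88 CPM. The neutrophil list summed to 13.7 CPM in WCOC pig 5, 64.2 CPM in C pig 5, 23.7 CPM in C pig 1 and 19.4 CPM in WCOC pig 4. The part of T cell, macrophage or neutrophil RNA in this pattern was not tested.

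**Figure D3:**
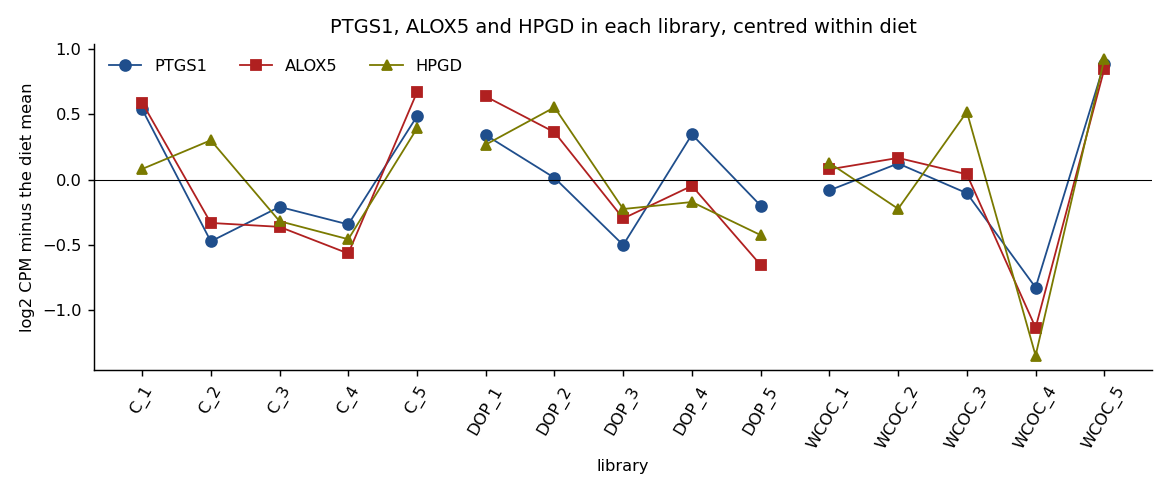
Log2 CPM of PTGS1, ALOX5 and HPGD minus the mean of the diet (vertical axis) in each of the 15 libraries (horizontal axis), with lines joining the pigs of a diet only to guide the eye. The 3 genes are lowest together in WCOC pig 4 and high together in WCOC pig 5 and C pig 5.

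The wider pathway was read through 46 further genes matched from a list of 63 symbols, of which 36 were tested. In DOP vs. C edgeR called none of them (0.764% of all genes), 3 had an unadjusted p under 0.05 and DESeq2 called 2, TBXA2R and COTL1, both lower. In WCOC vs. C 1 was higher, 3 were lower and 32 were not called, against 2.33% higher and 3.93% lower over all genes tested. The median log2FC over the 36 was -0.17, against 0.00433 over all genes. All 6 tested prostanoid synthases of this list had a log2FC below 0, from -0.17 to -0.96, with none called. AKR1B1 (-0.51 ± 0.12, adjusted p = 0.0196, edgeR) missed only the fold limit. The synthases among the members, PTGES and PTGIS, were at -0.17 and 0.27 in the same comparison. Between the olive diets, WCOC vs. DOP, 1 was higher and none lower, against 2.65% and 5.11% of all genes.

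PTGER2 (ENSSSCG00000021862, chr1:181993961-182009959), the other prostaglandin E2 receptor that raises cyclic AMP, was higher in WCOC. It was at 21.4, 24.2, 13.2, 24.7 and 28.7 CPM in C, 17.2, 24.3, 25.9, 26 and 15.9 CPM in DOP and 39.5, 33.5, 41.1, 31.1 and 44.1 CPM in WCOC. WCOC overlapped neither C nor DOP. The log2FC was 0.76 ± 0.19 in WCOC vs. C (adjusted p = 0.0254) and 0.79 ± 0.19 in WCOC vs. DOP (adjusted p = 0.0192, edgeR). The WCOC vs. C call was lost without C pig 1 or WCOC pig 1, 3 or 5, at log2FC of 0.60 or more (adjusted p up to 0.0616). It was also lost without the macrophage-rich C pigs 3 and 5 (0.69 ± 0.18, adjusted p = 0.0629, edgeR). The WCOC vs. DOP call was lost without the 3 muscle-rich DOP libraries (0.80 ± 0.26, adjusted p = 0.218, edgeR), a fit that kept only DOP pigs 1 and 3. It was lost too with flow cell as a covariate, and diet and flow cell cannot be told apart in WCOC vs. DOP. PTGER2 overlaps PTGDR on the same strand, so reads of the 2 genes may not be told apart. Of the prostaglandin E2 receptors, the 2 that raise cyclic AMP, PTGER4 and PTGER2, were thus both called in WCOC vs. C. PTGER2 was called less stably than PTGER4 over these alternatives. The prostacyclin receptor PTGIR was at -0.58 ± 0.29 in WCOC vs. C and was not called (adjusted p = 0.216, edgeR).

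TBXA2R (ENSSSCG00000033759, chr2:75068413-75081305), the thromboxane receptor of platelets and vessel walls, was lower. It was at 31.0, 29.6, 33.0, 39.5 and 22.3 CPM in C, 21.9, 19.2, 15.7, 15.1 and 12.2 CPM in DOP and 7.53, 18.6, 20.6, 16.6 and 10.5 CPM in WCOC. Every C pig lay above every pig of the olive diets. The log2FC was -1.08 ± 0.25 in WCOC vs. C (adjusted p = 0.0159) and -0.89 ± 0.25 in DOP vs. C (adjusted p = 0.0998, edgeR).

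COTL1 (ENSSSCG00000037645, chr6:4099341-4146281), an actin-binding protein that also binds 5-lipoxygenase, fell by 1.89 ± 0.45 on the log2 scale in WCOC vs. C (adjusted p = 0.0176, edgeR). Its levels were 21, 34.0, 99.9, 38.8 and 116 CPM in C, 23.9, 18, 12.3, 17.7 and 13.5 CPM in DOP and 11.2, 32.0, 9.63, 14.7 and 16.4 CPM in WCOC. The C pigs 3 and 5 with the highest values also had the highest macrophage sums, 788 and 1015 CPM, and 7 of the 14 macrophage markers were called lower in WCOC vs. C (3.93% of all genes). Without these pigs the log2FC was -0.90 ± 0.35 (adjusted p = 0.189), and without WCOC pig 1 it was no longer called (adjusted p = 0.0546).

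CMKLR1 (ENSSSCG00000031346, chr14:42420166-42468080), the receptor of chemerin and resolvin E1, was highest in the C group (14.4 ± 4.90 CPM), followed by DOP (10.1 ± 3.81) and WCOC (7.79 ± 1.52). WCOC vs. C gave a log2FC of -0.89 ± 0.26 (adjusted p = 0.0417, edgeR). It was called in 3 of the 10 fits that left out 1 pig (lost without C pig 2, 3 or 5 or WCOC pig 1, 2, 3 or 4, with adjusted p up to 0.104) and came to -0.52 ± 0.26 (adjusted p = 0.302) without C pigs 3 and 5. The part of macrophage RNA in these falls was not tested beyond that.

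**Figure D4:**
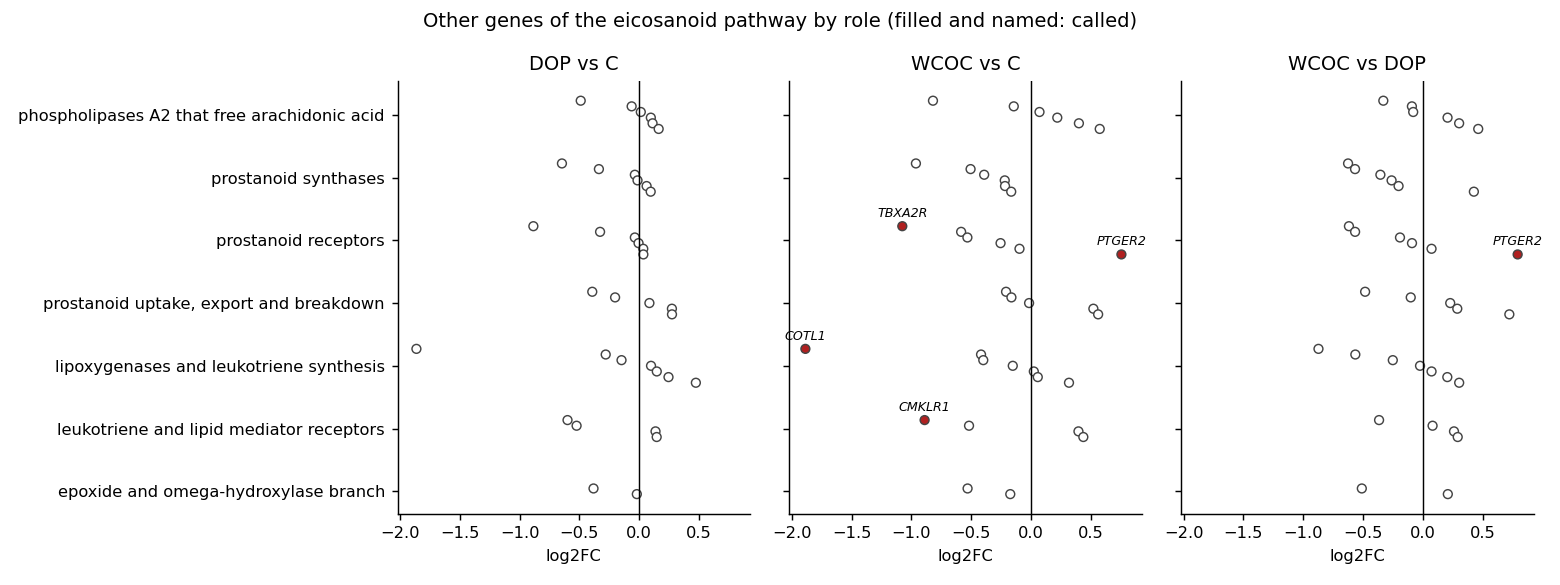
Log2FC (horizontal axis) of the 36 other tested pathway genes by role (vertical axis) for each pair of diets, 1 point per gene, filled and named where called. PTGER2 is higher in WCOC in both of its comparisons, and TBXA2R, COTL1 and CMKLR1 are lower in WCOC vs. C.

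**Figure D5:**
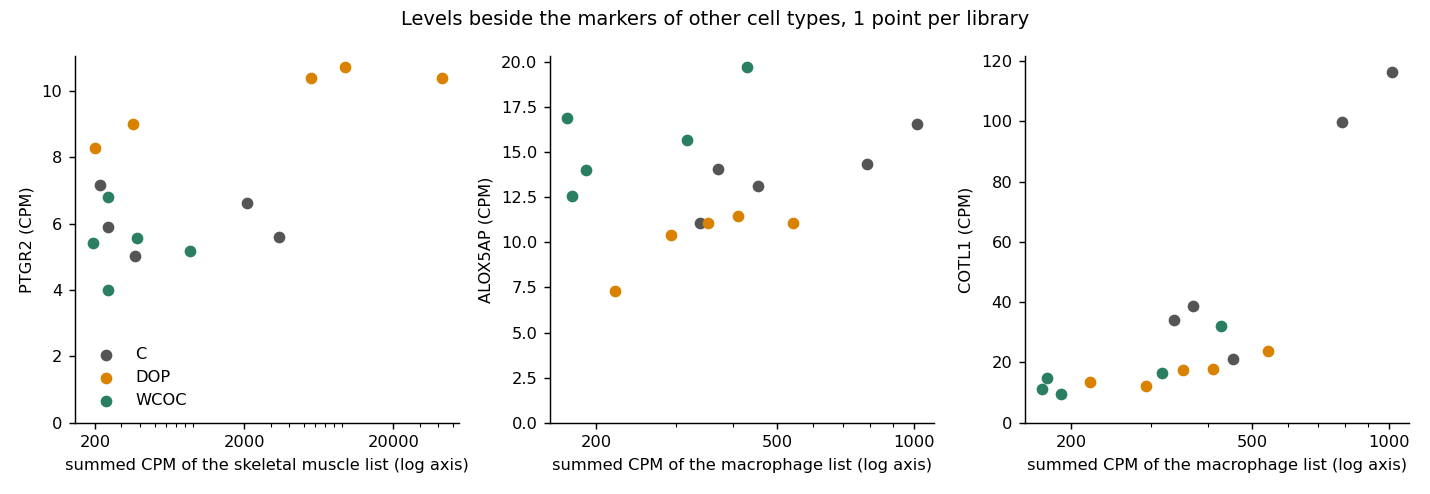
CPM of PTGR2, ALOX5AP and COTL1 (vertical axes) against the summed CPM of the skeletal muscle list (PTGR2) or the macrophage list (ALOX5AP and COTL1) on log axes, 1 point per library. PTGR2 is highest in the 3 DOP pigs with the most muscle RNA. C pigs 1 and 3, with muscle sums of 2101 and 3430 CPM, have PTGR2 at 6.62 and 5.61 CPM. COTL1 is highest in the 2 C pigs with macrophage sums of 788 and 1015 CPM.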

How the data were processed

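RNA of backfat was read as 1 paired-end library per pig, 5 pigs per diet. The authors aligned the read pairs to Sscrofa11.1 with HISAT2, set as strand-specific, and HTSeq assigned them to Ensembl genes, and the deposited values are raw counts. The strand option of the counting, the annotation release and the versions are not given in the sources used here, so counts of overlapping genes are uncertain. The 5 summary lines per file (23.4% to 32.8% of read pairs) stayed out of library sizes and tests.

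Counts were analysed with edgeR 4.0.16 in R 4.3.3: filterByExpr (14918 genes), TMM scaling, and a quasi-likelihood fit of 1 mean per diet to all 15 libraries (common dispersion 0.0814), with two-sided tests adjusted by Benjamini-Hochberg across the genes tested. A call needed an adjusted p under 0.05 together with a log2FC no smaller than 0.58 in size. CPM, CPM per kb and log2 CPM (prior count 1) were computed here. Labels do not say more of the samples than diet and number, so p-values measure the spread between the pigs of 1 pen. Relations between members used 100000 permutations within diets. Motifs, positions and exon lengths are from the RefSeq annotation of Sscrofa11.1, a length being that of all exons of a gene joined. On simulated data for WCOC vs. C, 169 of 200 changed genes and 4 unchanged genes were called among the 14918 genes. Whether such counts hold at the fold sizes called among the members, or with uneven muscle or macrophage RNA, was not tested. Counts limit precision for PTGS2 (14 to 371 per library).

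The members, the pathway and marker lists and the rule for named genes were chosen with earlier results of these data known. Named were all 10 members, every pathway gene called in a comparison, the most abundant gene per kb of each role, and the 3 genes most like each called member and PTGS2 among genes of at least 1 CPM. The lists of cell type markers covered skeletal muscle, macrophage, neutrophil, mast cell, T cell, B cell, endothelial, smooth muscle and pericyte, fibroblast and adipocyte progenitor, adipocyte, and epidermis and hair follicle. Alternatives were DESeq2 1.42.0, its size factors, no filter, a fit to the libraries of the 2 diets alone, flow cell as a covariate, the libraries of flow cell A by themselves, a block for the replicate number, no limit on the log2FC, and leaving out each pig. Tables were made with pandas 2.3.3, numpy 2.4.6 and scipy 1.17.1 under Python 3.11.15, figures with matplotlib 3.10.9.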

Additional observations from a re-analysis of the deposited data

Results flagged for a closer look

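PTGS2 in DOP pig 2 was at 14 CPM, with the next DOP pig at 1.49 CPM, a gap of 0.946 of the range of the group (Dixon's limit for 5 samples is 0.71). ALOX5AP in DOP pig 5 was the lowest of its group at 7.32 CPM, the next being 10.4 CPM (0.742 of the range), in the library with the most skeletal muscle RNA. These were 2 of 30 groups examined, and chance flags about 1 in 20.

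The effects of the olive diets against C differed by the test of their difference, which is WCOC vs. DOP, for PTGR2 (-0.85 on the log2 scale, adjusted p = 0.00356), ALOX5AP (0.62, adjusted p = 0.0181) and PTGER2 (0.79, adjusted p = 0.0192, all edgeR). WCOC was below DOP in 5 of 5 pigs for PTGR2 and above it in 5 of 5 for ALOX5AP and PTGER2. Diet and flow cell cannot be told apart in this difference.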

How the results depend on the processing

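Over all alternatives other than leaving out 1 pig, 283 gene results stayed on their side of the test, 25 lost their call, 3 gained it and 11 changed sign. The 283 include genes not called in either fit, so they do not measure how stable the calls were. In WCOC vs. C, calls were kept in 8 of 8 such fits for TBXA2R, 7 for PTGER4 and 6 for PTGER2. COTL1 kept its call in 5 and CMKLR1 in 3. PTGR2 in DOP vs. C kept its call in 2 of 8. In WCOC vs. DOP, PTGR2 kept it in 5 of 7, and ALOX5AP and PTGER2 in 4 of 7 each. The members called in DOP vs. C fell to 0 with no filter, with only the diets compared, with the replicate block, with flow cell as a covariate, and without the DOP libraries rich in muscle or the C libraries rich in macrophage RNA (both chosen after seeing the data). In WCOC vs. C they fell to 0 with the block. In WCOC vs. DOP they fell to 1 with the block and to 0 with flow cell as a covariate or without the muscle-rich DOP libraries. The pathway genes called in DOP vs. C were 2 by DESeq2 and 1 with flow cell as a covariate. In WCOC vs. C they were 1 with the block, 2 on flow cell A alone and 1 without the macrophage-rich C libraries. In WCOC vs. DOP they were 3 with no limit on the log2FC, and 0 with the block, with flow cell as a covariate or without the muscle-rich DOP libraries.

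Over all genes, 114 were called in DOP vs. C, 518 by DESeq2, 2 with only the diets compared, and 0 with the block, without the muscle-rich DOP libraries or without the macrophage-rich C libraries (1950, 1059 and 1776 at an unadjusted p under 0.05). In WCOC vs. C 933 were called, 1493 with no limit on the log2FC, 473 with the block, 486 on flow cell A alone and 289 without the macrophage-rich C libraries. In WCOC vs. DOP 1158 were called, 1842 with no limit, 561 with the block, 1 with flow cell as a covariate and 80 without the muscle-rich DOP libraries. Leaving out 1 pig gave 0 to 200, 468 to 1163 and 639 to 1291 genes, 0 to 1, 1 and 1 to 2 members, and 0 to 1, 1 to 4 and 1 to 3 pathway genes.

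None of the signs that changed was of a difference that had been called. With flow cell as a covariate, log2FC became -0.083 for PTGIS and -0.30 for HPGD in DOP vs. C, and 0.40 for PTGS1, 0.21 for HPGD, 0.36 for CMKLR1 and 1.24 for COTL1 in WCOC vs. DOP. Without the macrophage-rich C libraries PTGER3 became -0.057 in DOP vs. C and -0.13 in WCOC vs. C. Without the muscle-rich DOP libraries PTGIS became -0.21 and ALOX5 -0.10 in WCOC vs. DOP, and with the block ALOX5 became -0.014. Leaving out 1 pig gave ranges that cross 0 in DOP vs. C for PTGIS (-0.12 to 0.26), HPGD (-0.11 to 0.16) and PTGER2 (-0.19 to 0.067), in WCOC vs. C for PTGER3 (-0.10 to 0.20) and HPGD (-0.46 to 0.032), and in WCOC vs. DOP for PTGS1 (-0.44 to 0.020), PTGER3 (-0.25 to 0.062), ALOX5 (-0.18 to 0.29) and COTL1 (-0.39 to 0.13). The cause was not tested.

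The labels do not say that the replicate numbers pair the pigs. The correlation of same-numbered libraries of different diets, centred within diets, ran from -0.50 to 0.34. Correlations between libraries that differ in replicate number were not computed. With that number as a block, the adjusted p was 0.0558 for PTGER4 and 0.0735 for PTGER2 in WCOC vs. C, 0.159 for PTGR2 in DOP vs. C, and 0.0635 for ALOX5AP and 0.0638 for PTGER2 in WCOC vs. DOP. The flow cell fit rests on C pig 5 alone, since no other C pig shares a flow cell with DOP. Depth limits PTGS2 most, with 14 counts in its lowest library.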

Other observations

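Other cell types were followed through lists of marker genes, given here as the lowest and highest summed CPM of the C, DOP and WCOC pigs in that order. Endothelial markers summed to 955 to 1212, 1237 to 1624 and 1058 to 1704 CPM, smooth muscle and pericyte markers to 779 to 1021, 852 to 2432 and 671 to 968 CPM, and fibroblast and adipocyte progenitor markers to 22963 to 34573, 19706 to 30951 and 14441 to 25267 CPM. Mast cell markers summed to 27 to 47.7, 36.4 to 68.0 and 35.7 to 41.9 CPM, neutrophil markers to 23.7 to 92.5, 25.2 to 50.4 and 13.7 to 65.7 CPM, T cell markers to 6.12 to 17.5, 5.25 to 25.3 and 4.03 to 19.1 CPM, and B cell markers to 6.10 to 7.75, 5.34 to 14.5 and 5.37 to 8.91 CPM. Epidermis and hair follicle markers summed to 4.17 to 44.7, 2.09 to 9.17 and 3.46 to 146 CPM. In WCOC vs. C, edgeR called 7 of the 14 macrophage markers and 4 of the 8 fibroblast and adipocyte progenitor markers lower, against 3.93% of all genes. The neutrophil marker MPO, the muscle marker TNNI2 and the B cell marker CD79A had at most 3 counts in every library.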
